A study of Homo sapiens with 6 samples.

Results

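The Notch genes examined here are the receptors *NOTCH1*, *NOTCH2*, *NOTCH3* and *NOTCH4*, the ligands *JAG1*, *JAG2* and *DLL1*, and the target genes *HES1*, *HEY1* and *HEY2*. They were taken by symbol from the table of normalized expression of MDA-MB-453 cells, which held all 10 members among its 22807 genes. MDA-MB-453 is an established HER2+ breast cancer cell line. The cells were transfected with *DUSP6* siRNA (3 libraries, labelled DUSP6 KD) or with scrambled siRNA (3 libraries, labelled WT), and RNA was sequenced from each. The study's legend gives 3 different siRNAs per group, without the siRNA of each library, and each group's libraries served here as its replicates. Nothing in the labels says that they came from separate experiments, and the p-values measure only the spread between these libraries. All libraries carried an siRNA, and no untransfected cells were compared.

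Notch signaling passes between touching cells. A JAG or DLL ligand on the surface of a cell binds a Notch receptor on its neighbor, the receptor is then cut by an ADAM protease and by gamma-secretase, and the freed intracellular part moves to the nucleus. There it joins the DNA-binding protein RBPJ and a MAML co-activator and turns on target genes, among them *HES1*, *HEY1* and *HEY2*, which code for transcriptional repressors. In breast epithelium the pathway is known for its part in the choice between luminal and basal fates, and NOTCH4 is best known from endothelial cells.

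The genes of the Notch pathway moved in both directions after *DUSP6* siRNA. Of the receptors, *NOTCH1*, *NOTCH2* and *NOTCH3* fell and *NOTCH4*, which had few reads, lay above its scrambled siRNA range, while the ligand *DLL1* rose 2.09-fold and *JAG2* did not change detectably. The target *HES1* fell, while *HEY1*, which had few reads, lay above the scrambled siRNA range in all 3 *DUSP6* siRNA libraries. A normalized value is the number of reads on a gene relative to the library size after TMM scaling, a method that corrects for library composition. It is not divided by gene length. Genes whose value averaged 1 or more across the 6 libraries entered a limma fit of log2(value + 1), and a gene was called at a Benjamini-Hochberg adjusted p under 0.05. Of the 10 members 7 passed this filter, and 4 of them were lower and 1 was higher. Among all 12862 genes tested, 24.7% were lower and 19.7% were higher. Without overlap between the groups, 4 of the 10 members lay lower and 4 lay higher with *DUSP6* siRNA. Of all 22807 genes, 4731 and 4930 did so, and of the genes tested 4003 (31.1%) and 3433 (26.7%) did. The 4 higher members include *NOTCH4* and *HEY1*, which fell under the filter. Among the genes under the filter, those lying higher outnumbered those lying lower. The median log2 fold change was -0.31 over the 7 tested members and -0.01 over all genes tested. In bulk RNA, a fall in the share of cells with a transcript and a fall in the transcript per cell cannot be told apart.

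**Figure D1:**
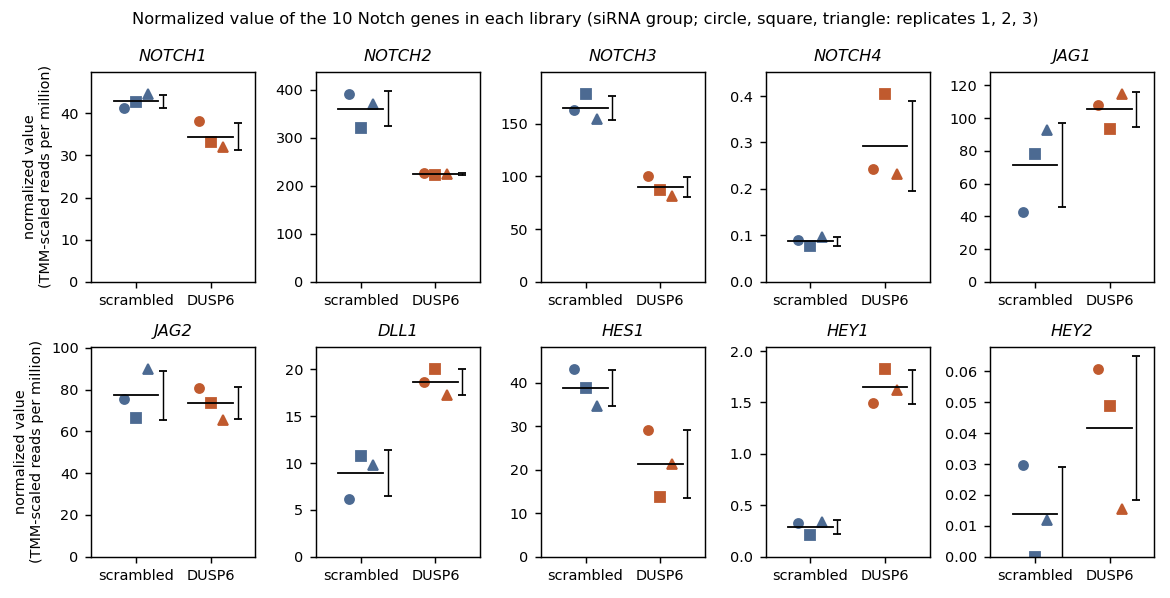
Normalized value (TMM-scaled, linear axes from 0) of each of the 10 genes in the 3 scrambled siRNA and 3 *DUSP6* siRNA libraries; lines are means and bars 1 SD (cut off at 0 for *HEY2*). *NOTCH1*, *NOTCH2*, *NOTCH3* and *HES1* lie lower in every *DUSP6* siRNA library, *JAG1*, *DLL1*, *HEY1* and *NOTCH4* higher, and *JAG2* and *HEY2* overlap.

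The libraries held between 45546981 and 85729785 reads, recovered from the steps of the values, so that 1 read corresponds to a value of 0.0121 to 0.0202. *DUSP6* itself stood at 209, 110 and 114 with scrambled siRNA and at 39.4, 24.5 and 35.2 with *DUSP6* siRNA, and its log2 fold change was -2.05 (limma, SE 0.25, adjusted p = 3.09e-04). A GENCODE long noncoding RNA on the opposite strand covers 28.6% of the *DUSP6* exons, which makes its reads uncertain. All 10 epithelial and HER2+ markers passed the filter, with *ERBB2* at 984 ± 94.3 (SD, n = 3) in the scrambled siRNA libraries. Their summed value was 4309 to 5694 with scrambled siRNA and 3157 to 3356 with *DUSP6* siRNA. Of these 10 markers 7 were lower and 1 was higher, against 24.7% and 19.7% of all genes tested. Of the 11 markers of other cell types 9 were in the table, none was at 0 in all libraries, and their sum was 86.5 to 112 with scrambled siRNA and 168 to 198 with *DUSP6* siRNA. *COL1A1* made up most of that sum (92.2 ± 12.2 and 173 ± 16.7, SD, n = 3 each), and apart from it and *CD68* no marker passed 0.283 in any library. The interferon response moved with the groups, with 10 of 10 listed genes higher (19.7% of all genes tested were) and a sum of 19.4 to 47.7 against 2296 to 3184. These genes were listed because earlier results of these data had shown them to move, so the count is no independent sign. Some of them passed the filter only through the *DUSP6* siRNA libraries. The part of these shifts in the Notch results was not tested.

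RBPJ binds DNA at the letters TGGGAA, and the promoters of the members were searched for them on both strands. RefSeq promoters (GRCh38.p14) were at hand for 8 of the 10 members. TGGGAA occurred within the 250 bases before the start of *HES1* and *HEY2* and not in those of the other 6. The promoters of *HES1* and *HEY2* are shown as those that hold the letters, and those of *NOTCH2* and *NOTCH3* as those of the receptors that fell most. They read 5′ to 3′ along the gene, end at the base before the start and show each match in capitals. The windows are chr3:194135898-194136147 (plus strand), chr6:125749382-125749631 (plus strand), chr1:120069663-120069912 (minus strand) and chr19:15200996-15201245 (minus strand).
HES1: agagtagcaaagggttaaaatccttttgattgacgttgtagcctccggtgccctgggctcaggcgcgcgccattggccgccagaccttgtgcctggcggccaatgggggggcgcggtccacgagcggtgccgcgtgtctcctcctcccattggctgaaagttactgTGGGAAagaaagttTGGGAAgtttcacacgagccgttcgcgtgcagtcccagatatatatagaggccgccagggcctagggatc
HEY2: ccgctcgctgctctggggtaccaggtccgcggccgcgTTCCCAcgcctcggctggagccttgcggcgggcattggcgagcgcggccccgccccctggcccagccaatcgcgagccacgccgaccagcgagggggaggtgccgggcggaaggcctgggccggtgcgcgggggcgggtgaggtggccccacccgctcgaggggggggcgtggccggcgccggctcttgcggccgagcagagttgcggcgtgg
NOTCH2: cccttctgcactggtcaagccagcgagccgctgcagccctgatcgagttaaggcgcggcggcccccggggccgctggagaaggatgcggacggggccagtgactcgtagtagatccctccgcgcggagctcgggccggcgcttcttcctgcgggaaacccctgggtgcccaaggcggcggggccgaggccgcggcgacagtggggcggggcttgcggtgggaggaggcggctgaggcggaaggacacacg
NOTCH3: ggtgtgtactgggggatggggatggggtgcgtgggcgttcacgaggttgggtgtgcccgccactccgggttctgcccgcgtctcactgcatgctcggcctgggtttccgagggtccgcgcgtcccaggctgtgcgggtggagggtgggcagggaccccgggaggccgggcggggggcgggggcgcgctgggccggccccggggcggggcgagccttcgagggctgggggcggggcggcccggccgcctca

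*HES1* held 2 matches, with their first letters 84 and 70 bases before the start. The first of them is part of the longer form GTGGGAA. *HEY2* held 1 match on the opposite strand (TTCCCA), 213 bases before the start, also in the longer form. Over all 27305 promoter windows of this length, 21.1% held TGGGAA on either strand, 2.92% held it at least 2 times, and 5.46% held GTGGGAA. A match describes the letters only. Of the members with the letters, *HES1* fell, and *HEY2* was close to 0 in both groups, too low to tell whether it moved.

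Of the tested receptors, *NOTCH3* had the largest change. *NOTCH3* (Entrez gene 4854, chr19:15159038-15200995 on GRCh38) codes for a receptor that is also known from vascular smooth muscle. Its value was 163, 178 and 155 with scrambled siRNA and 100.2, 87.4 and 81.4 with *DUSP6* siRNA, in the order of replicates 1 to 3 that is kept for all genes. All 3 *DUSP6* siRNA libraries lay below all 3 scrambled siRNA libraries. Mean *NOTCH3* went from 165 ± 11.6 down to 89.7 ± 9.59 (SD, n = 3 each), which is 54.3% of the scrambled siRNA mean, with a log2 fold change of -0.88 (SE 0.10, adjusted p = 2.55e-04 by limma).

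*NOTCH2* (Entrez gene 4853, chr1:119911553-120069662) was the most highly expressed member. It stood at rank 451 of all genes by mean value, which is not divided by gene length and so favors long transcripts. It had a value of 390, 320 and 371 with scrambled siRNA and of 226, 221 and 224 with *DUSP6* siRNA. The *DUSP6* siRNA libraries were close together, with an SD of 2.08 against 36.1 in the scrambled siRNA libraries. *NOTCH2* mRNA fell to 62.1% of the scrambled siRNA mean, a log2 fold change of -0.68 (SE 0.10, adjusted p = 6.44e-04 by limma). The size of the fall depended on the scaling, since quantile normalization gave a log2 fold change of -0.44, which was also called.

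The human genome holds partial copies of *NOTCH2*, the *NOTCH2NL* genes, which share its first exons almost exactly. Reads in these exons could have been split between the copies, so their separate values are uncertain. *NOTCH2NLA*, *NOTCH2NLB* and *NOTCH2NLR* were in the table and all 3 were called lower, with log2 fold changes of -0.40, -0.43 and -0.44. Summed, they reached 41.9 ± 1.78 in the scrambled siRNA libraries and 30.5 ± 0.222 in the *DUSP6* siRNA libraries (SD, n = 3 each). This sum was 11.6% of the *NOTCH2* value in the scrambled siRNA libraries. With the copies added, *NOTCH2* with *DUSP6* siRNA stood at 63.2% of its scrambled siRNA mean in place of 62.1%.

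*NOTCH1* (Entrez gene 4851, chr9:136494433-136546048), the receptor known from mutations in leukemia, had the smallest fall of the tested receptors. Its value was 41.4, 42.7 and 44.5 with scrambled siRNA and 38.1, 33.2 and 32.1 with *DUSP6* siRNA. The groups did not overlap on these TMM-scaled values, although *DUSP6* siRNA replicate 1 came near the lowest scrambled siRNA library. Every TMM factor was higher with *DUSP6* siRNA than with scrambled siRNA, which lowers the values with *DUSP6* siRNA. Overlap without this scaling was not tested. The log2 fold change was -0.31 (limma, SE 0.10, adjusted p = 0.0310). This call was lost in several alternatives, among them quantile normalization and the fits without *DUSP6* siRNA replicate 2 or 3, and over all alternatives the adjusted p ranged from 0.0283 to 0.146.

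*NOTCH4* (Entrez gene 4855, chr6:32194843-32224067) fell under the filter. Its reads numbered 6, 4 and 8 with scrambled siRNA, against 12, 33 and 15 with *DUSP6* siRNA. These reads correspond to values of 0.0893, 0.0766 and 0.0964 and of 0.243, 0.404 and 0.232. All *DUSP6* siRNA libraries lay above the scrambled siRNA libraries, opposite to the other receptors, at a mean value of 0.190 over all 6 libraries. Without the filter *NOTCH4* was called higher with limma (adjusted p = 0.0116), in a fit that called 13.1% of all genes higher. The endothelial markers *PECAM1*, *VWF* and *CDH5* had mean values of 0.224, 0.149 and 0.0168 with scrambled siRNA and of 0.168, 0.0582 and 0.0222 with *DUSP6* siRNA.

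Among the ligands, *DLL1* changed most. *DLL1* (Entrez gene 28514, chr6:170282206-170291078), a Delta-like ligand, had a value of 6.14, 10.8 and 9.75 with scrambled siRNA and of 18.6, 20.01 and 17.3 with *DUSP6* siRNA. Even the lowest *DUSP6* siRNA library lay well above the highest scrambled siRNA library. The mean rose from 8.90 ± 2.44 (SD, n = 3) to 18.6 ± 1.37 (SD, n = 3), with a log2 fold change of 1.02 (SE 0.18, adjusted p = 0.00210 by limma). Exons of *FAM120B* on the opposite strand cover 9.69% of those of *DLL1*, and the counting did not use strand by default, so the value is uncertain. *FAM120B* itself had 50.1 ± 3.56 and 57.0 ± 4.00 (SD, n = 3 each) with a log2 fold change of 0.18 (adjusted p = 0.154 by limma).

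*JAG1* (Entrez gene 182, chr20:10637684-10673999), a ligand of the Jagged type, had a value of 42.9, 78.2 and 92.9 with scrambled siRNA and of 108, 93.4 and 115 with *DUSP6* siRNA. The groups did not overlap, but the highest scrambled siRNA library nearly reached the lowest *DUSP6* siRNA library, and scrambled siRNA replicate 1 stood far below the others. The log2 fold change of 0.62 (95% interval 0.08 to 1.17) did not pass the threshold (limma adjusted p = 0.0624). Without scrambled siRNA replicate 1 the log2 fold change was 0.30. *JAG1* was called higher in several alternatives, among them quantile normalization and the fit without scrambled siRNA replicate 3, and its adjusted p ranged from 0.0142 to 0.154 over all alternatives.

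*JAG2* (Entrez gene 3714, chr14:105140995-105168776), the other Jagged ligand, had a value of 75.6, 66.5 and 89.7 with scrambled siRNA and of 81.0, 73.6 and 65.6 with *DUSP6* siRNA. The groups overlapped, with the lowest and the highest library in different groups. The log2 fold change of -0.07 had a 95% interval from -0.36 to 0.22 (limma adjusted p = 0.690) and was not called, which leaves changes within that interval undetected. A long noncoding RNA on the same strand covers 7.33% of the exons of *JAG2*, so its value is uncertain.

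*HES1* (Entrez gene 3280, chr3:194136148-194138732) codes for a repressor with a basic helix-loop-helix domain and is a classical direct target of Notch. Its promoter is the one with 2 matches shown above. The value was 43.1, 38.8 and 34.8 with scrambled siRNA and 29.2, 13.6 and 21.3 with *DUSP6* siRNA. All *DUSP6* siRNA libraries lay below the scrambled siRNA libraries. On the log2 scale, the *DUSP6* siRNA libraries differed among themselves more than for any other tested member. On that scale, *DUSP6* siRNA replicates 1 to 3 differed from the scrambled siRNA mean by -0.39, -1.44 and -0.83. Mean *HES1* fell from 38.9 ± 4.16 (SD, n = 3) to 21.4 ± 7.80 (SD, n = 3), with a log2 fold change of -0.89 (SE 0.23, adjusted p = 0.0122 by limma). The call held in all alternatives run, with adjusted p-values up to 0.0474, and without *DUSP6* siRNA replicate 2 the log2 fold change was -0.61.

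*HEY1* (Entrez gene 23462, chromosome 8), a repressor related to HES1, had a mean value of 0.969 and fell just under the filter. Its reads numbered 22, 11 and 28 with scrambled siRNA, against 74, 149 and 105 with *DUSP6* siRNA. The values were 0.327, 0.211 and 0.337 against 1.496, 1.82 and 1.62, so the groups were far apart relative to their spread. The mean value with *DUSP6* siRNA was 5.64 times that with scrambled siRNA. Without the filter *HEY1* was called higher with limma (log2 fold change 1.03, adjusted p = 2.65e-04), where 13.1% of all genes were called higher. The added 1 makes this fold change smaller, and edgeR on the recovered reads gave a log2 fold change of 2.47 (adjusted p = 8.60e-05) in a fit that called 19.5% of genes higher. *HEY2* (Entrez gene 23493, chr6:125749632-125761269), known from the heart and vessels, had 2, 0 and 1 reads with scrambled siRNA and 3, 4 and 1 reads with *DUSP6* siRNA. At this depth no difference in *HEY2* was detectable. The direction thus differed among the targets, with *HES1* lower and *HEY1* higher in each *DUSP6* siRNA library.

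**Figure D2:**
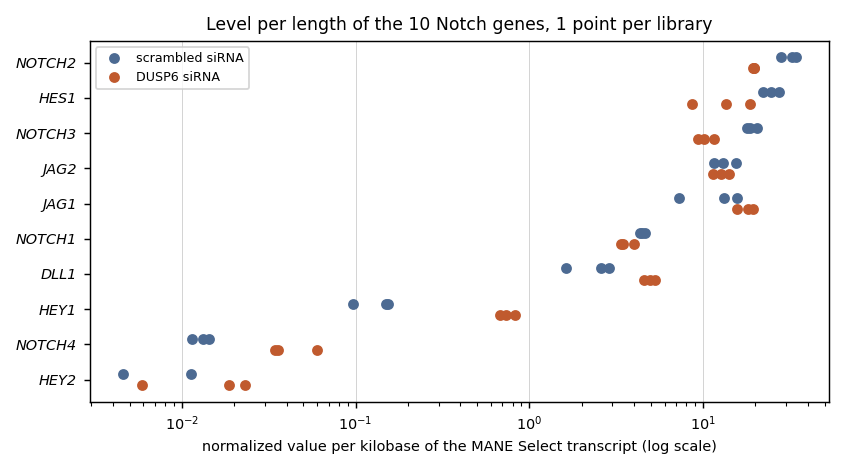
Normalized value per kilobase of the MANE Select transcript (log axis) for each of the 10 genes, ordered by the scrambled siRNA mean, with 1 point per library; 1 scrambled siRNA library with a *HEY2* value of 0 is not drawn. In the scrambled siRNA libraries *NOTCH2*, *HES1* and *NOTCH3* stood highest, while with *DUSP6* siRNA *NOTCH2* was followed by *JAG1*.

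Levels were compared between genes per kilobase of the MANE Select transcript. In the scrambled siRNA libraries, *NOTCH2* stood highest with 31.5 ± 3.16 per kilobase (SD, n = 3), followed by *HES1* with 24.7 ± 2.64, *NOTCH3* with 19.0 ± 1.34, *JAG2* with 13.4 ± 2.02 and *JAG1* with 12.01 ± 4.32. *NOTCH1* with 4.48 ± 0.164 and *DLL1* with 2.36 ± 0.647 came next, and *HEY1*, *NOTCH4* and *HEY2* were at 0.133 per kilobase or less. Neighbors in this order did not overlap between libraries, except *JAG2* and *JAG1*. In the *DUSP6* siRNA libraries the levels of the leading genes lay closer to each other. *NOTCH2* was at 19.6 ± 0.182 per kilobase and *JAG1* at 17.7 ± 1.83. *HES1* at 13.6 ± 4.95, *JAG2* at 12.7 ± 1.34 and *NOTCH3* at 10.3 ± 1.10 followed. *JAG1* overlapped *HES1*, *HES1* overlapped *JAG2* and *JAG2* overlapped *NOTCH3*, while *DLL1* at 4.93 ± 0.362 per kilobase now stood above *NOTCH1* at 3.598 ± 0.335 without overlap. With lengths from all annotated exons in place of the MANE Select transcript, the order was the same with scrambled siRNA and placed *JAG2* before *JAG1* and *HES1* with *DUSP6* siRNA.

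The libraries within a group did not rank the members alike. Scrambled siRNA replicate 1 had the lowest value of all 6 libraries for both *JAG1* and *DLL1*, and its *HES1* value was the highest. *DUSP6* siRNA replicate 2 had the lowest *HES1* value and the highest values of *DLL1*, *HEY1* and *NOTCH4*. The same library had the lowest value of *DUSP6* itself.

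**Figure D3:**
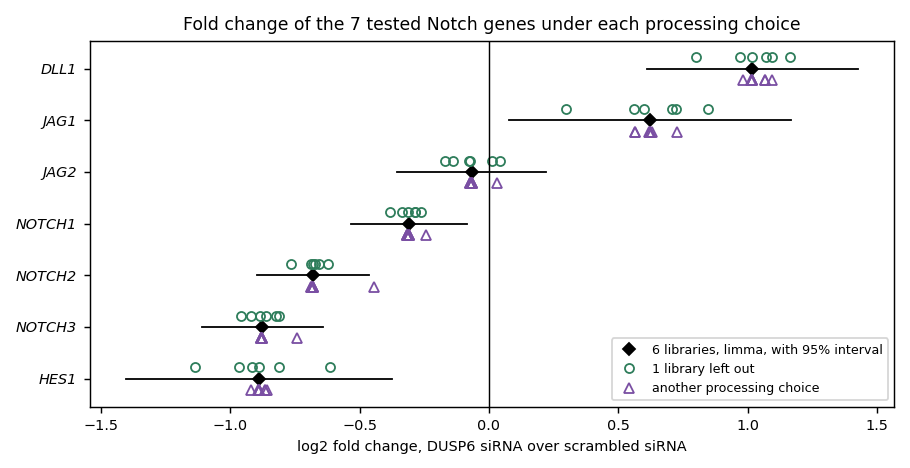
Log2 fold change of the 7 tested genes, with the 95% interval from limma on all 6 libraries (diamonds and lines), with 1 library left out (circles) and under another processing choice (triangles). *NOTCH2*, *NOTCH3* and *HES1* stay below 0 and *DLL1* above 0 throughout, *JAG1* runs from 0.30 to 0.85, and *JAG2* lies on both sides of 0.

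The rest of the pathway was followed with 66 genes in 9 lists by role, of which 52 were tested. Of these, 15 were higher (28.8%) and 14 were lower (26.9%), against 19.7% and 24.7% of all genes tested, and their median log2 fold change was 0.00. Without *DUSP6* siRNA replicate 2, the number of higher genes dropped to 9, while that among all genes tested dropped from 2540 to 1574.

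On the side of the ligands, *DLL4*, a Delta-like ligand of endothelium, had a mean value of 0.991 ± 0.0916 with scrambled siRNA and 1.65 ± 0.143 with *DUSP6* siRNA (SD, n = 3 each), and its call among the higher genes (log2 fold change 0.41) was lost without *DUSP6* siRNA replicate 3. It passed the filter only through the *DUSP6* siRNA libraries, so the call is no independent sign of a rise. The ubiquitin ligases that prepare ligands for signaling changed in both directions. *MIB2* rose from 20.2 ± 4.31 to 36.2 ± 3.47 (log2 fold change 0.82, limma adjusted p = 0.00283) and *MIB1* rose by a log2 fold change of 0.36 (adjusted p = 0.0297 by limma), a call that was lost with no filter and without scrambled siRNA replicate 1 or 3 or *DUSP6* siRNA replicate 2 or 3. *NEURL1B* fell from 22.3 ± 3.06 to 11.1 ± 1.44 (log2 fold change -0.94, limma adjusted p = 7.28e-04).

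Of the 6 tested glycosyltransferases, which tune how receptors respond to ligands, 2 were lower and 1 was higher. These shares of 33.3% and 16.7% were near the 24.7% and 19.7% of all genes tested. *LFNG*, a Fringe enzyme that favors Delta over Jagged ligands, fell from 18.5 ± 3.25 to 11.5 ± 1.19 (SD, n = 3 each; log2 fold change -0.63). *POFUT1*, which adds the fucose that Fringe enzymes extend, fell by 0.54 on the log2 scale, and the Fringe enzyme *RFNG* rose by 0.59. Of the proteases, *ADAM10* (log2 fold change -0.07), which makes the cut that ligands trigger, and *ADAM17* (0.11) were not called. *FURIN*, which cuts the receptor on its way to the surface, was called higher at 0.36 with all 6 libraries. Its call was lost with no filter and in the fits that left out 1 library other than *DUSP6* siRNA replicate 3.

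Of the 6 subunits of gamma-secretase, the complex that frees the intracellular part of the receptor, 4 were higher (66.7%, against 19.7% of all genes tested) and the other 2 were not called. Their median log2 fold change was 0.44, and the calls of 2 of the 4, *PSENEN* and *APH1A*, depended on single libraries. *NCSTN*, the nicastrin subunit that receives substrates, rose from 127 ± 6.43 to 209 ± 18.2 (SD, n = 3 each), a log2 fold change of 0.71 (adjusted p = 4.55e-04 by limma). *APH1B* rose from 6.13 ± 0.583 to 13.2 ± 2.16 (log2 fold change 0.99) and *PSENEN* by 0.50 on the log2 scale, the latter not called without scrambled siRNA replicate 1 or 2 or *DUSP6* siRNA replicate 2 or 3. *APH1A* (log2 fold change 0.37, adjusted p = 0.0416 by limma) was called without scrambled siRNA replicate 3 but not without any 1 of the other libraries, with no filter, without a trend or with edgeR, and its adjusted p ranged from 0.00101 to 0.140. *PSEN2*, a catalytic subunit (log2 fold change 0.24, 95% interval 0.01 to 0.47), did not pass the threshold. Exons of neighboring genes cover 52.2% of those of *PSENEN* and 38.7% of those of *PSEN2*, so these 2 values are uncertain.

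In the nucleus, *RBPJ* had 43.2 ± 17.4 and 54.2 ± 1.59 (SD, n = 3 each) and was not called (log2 fold change 0.41, limma adjusted p = 0.237). Its co-activator *MAML3* fell from 15.5 ± 2.58 to 6.54 ± 0.350 (log2 fold change -1.12, limma adjusted p = 2.81e-04), while *MAML1* was not called at 0.10. The acetyltransferases *EP300* and *CREBBP* fell by 0.61 and 0.60 on the log2 scale, with *EP300* at -0.36 under quantile normalization, and the acetyltransferases *KAT2A* and *KAT2B* rose by 0.59 and 0.43. The call of *KAT2B* was lost with no filter and without scrambled siRNA replicate 3 or any 1 of the *DUSP6* siRNA replicates. Of the 13 tested co-repressor genes, 6 were lower (46.2%) and 2 were higher (15.4%), against 24.7% and 19.7% of all genes tested. *TLE3*, a Groucho-type co-repressor that HES proteins recruit, fell most, from 86.1 ± 12.2 to 26.4 ± 3.36 (log2 fold change -1.67, limma adjusted p = 2.92e-05). *SPEN*, which silences RBPJ sites when Notch is off, fell by 0.61. The demethylase *KDM5A* rose by 0.71 and *CTBP1* by 0.39, the latter not called without scrambled siRNA replicate 1 or *DUSP6* siRNA replicate 1 or 2.

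Among the inhibitors and turnover genes, *DTX2* was lower (log2 fold change -0.78) and *DTX3*, also of the Deltex family, was higher (0.63), while *NUMB* (-0.27), *ITCH* (-0.10) and *FBXW7* (0.09), which remove Notch or limit its activity, were not called. Of the other targets, *HES4* rose from 4.49 ± 0.960 to 10.6 ± 2.03 (log2 fold change 1.08, limma adjusted p = 0.00105). It lies 13399 bases from *ISG15*, 1 of the listed interferon response genes. *ISG15* rose from 6.32 ± 3.45 to 181 ± 46.2 (log2 fold change 4.70, limma adjusted p = 9.07e-06), and a link between these rises was not tested. *CCND1*, the cyclin D1 gene, fell from 349 ± 31.0 to 228 ± 13.98 (log2 fold change -0.61, limma adjusted p = 0.00121), or by 0.37 on the log2 scale under quantile normalization. *NRARP*, a feedback inhibitor that Notch turns on in many tissues, had 24.8 ± 6.79 and 21.4 ± 1.31 (SD, n = 3 each) and was not called (log2 fold change -0.17, 95% interval -0.57 to 0.23). Exons of neighboring genes cover more than 5% of those of *NEURL1B*, *RFNG*, *ADAM17*, *APH1A*, *PSENEN*, *PSEN2*, *KAT2A*, *SPEN*, *CTBP1*, *ITCH* and *CCND1*, and of the markers *ERBB2* and *CD68*, so their values are uncertain. The same holds for the *NOTCH2* copies *NOTCH2NLA*, *NOTCH2NLB* and *NOTCH2NLR*.

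**Figure D4:**
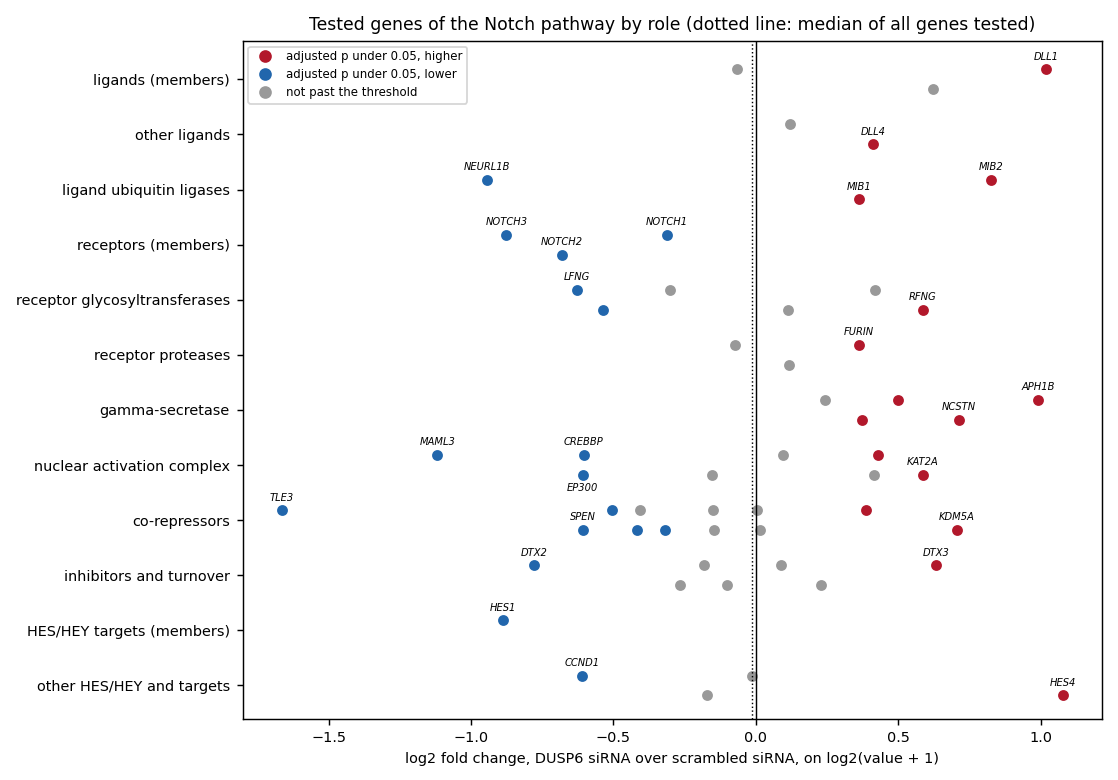
Log2 fold change (*DUSP6* siRNA over scrambled siRNA) of the tested genes of the Notch pathway, 1 row per role, with 1 point per gene colored by its call at an adjusted p under 0.05; the named genes are some of those called. The 3 tested receptors lie to the left, 4 gamma-secretase subunits are called to the right, and the ligands and targets fall on both sides.

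For the receptor, the ligand and the target with the highest mean value over the 6 libraries, the genes with the most similar pattern over the 6 libraries were looked up, by Pearson's r of log2(value + 1). For *NOTCH2* these were *DONSON*, *INTS7* and *HDAC2*, each with r of 1.00 after rounding, and 17.0% of all genes tested had r over 0.9. For *JAG1* they were *PDIA4* (r = 0.99), *CREBZF* (0.99) and *SOX4* (0.99), where 2.36% of genes had r over 0.9. For *HES1* they were *TBC1D1* (r = 0.99), *EGR1* (0.99) and *EGF* (0.99), where 2.66% of genes had r over 0.9. *EGR1*, an immediate early gene, had 178 ± 50.3 with scrambled siRNA and 54.6 ± 34.7 with *DUSP6* siRNA (SD, n = 3 each; log2 fold change -1.90, limma adjusted p = 0.0104). These correlations rest on 6 libraries that fall into 2 groups and describe the pattern only.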

How the data were processed

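RNA of MDA-MB-453 cells was sequenced in 3 libraries with *DUSP6* siRNA and 3 with scrambled siRNA, grouped by their titles. The authors aligned reads to hg38 with Rsubread and assigned them to RefSeq gene models with default settings, which ignore strand. They deposited 1 normalized signal value per gene and library, and edgeR is among the tools in the submitters' processing notes. In every library 100% of the values were whole multiples of 1 step within a tolerance of 0.001, which gave back the reads. The scaling matched edgeR's TMM factors to within 2.2e-16. These factors were 0.881, 0.923 and 0.968 with scrambled siRNA and 1.086, 1.081 and 1.082 with *DUSP6* siRNA, so they differed between the groups.

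limma 3.58.1 in R 4.3.3 (lmFit, eBayes with a trend) was run on log2(value + 1) for the 12862 genes whose value averaged 1 or more. edgeR 4.0.16's quasi-likelihood test was run on the recovered reads, and the fit with a mean of at least 10 reads was chosen after seeing the data. On the same 12862 genes edgeR called 3245 lower and 2459 higher. Both tools were tested on simulated data with the same spread in both groups, which does not check the calls made here. Other alternatives were a pseudocount of 0.1, no filter or one at an average of 10, scaling by median of ratios, quantile normalization, no trend, a replicate block and leaving out each library. The members, lists and tests were chosen with earlier results of these data known. Named were all members, up to 3 called genes per list and direction, and the 3 genes most similar to the receptor, ligand and target with the highest mean value. *APH1A* and the named genes that were not called were chosen after their values were seen. Positions came from RefSeq (GRCh38.p14), exon overlaps and lengths from GENCODE. All columns of values were used. The results of 2 tested pathway genes are not reported here, and these genes enter only the counts and medians of their lists.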

Additional observations from a re-analysis of the deposited data

How the results depend on the processing

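The number of members called lower was 4, or 3 under quantile normalization and with a replicate block (*NOTCH1* lost, adjusted p = 0.0589 with the block), and 3 to 4 with 1 library left out. The number called higher was 1, but 3 with no filter and with edgeR at a mean of at least 10 reads, where *HEY1* and *NOTCH4* were added, 2 under quantile normalization and with a replicate block, where *JAG1* was added (adjusted p = 0.0158 with the block), and 1 to 2 with 1 library left out. The *JAG2* log2 fold change turned to 0.0301 under quantile normalization and ranged from -0.17 to 0.0444 with 1 library left out, with values above 0 without scrambled siRNA replicate 3 (0.0444) and without *DUSP6* siRNA replicate 3 (0.0101). Higher genes among the other pathway genes numbered 9 to 13 with 1 library left out, against 15, and higher genes among all genes tested 1574 to 3183, against 2540. The lowest number in both came without *DUSP6* siRNA replicate 2. A filter at an average of 10 tested fewer genes and left 1639 higher. Same-numbered libraries deviated together little (correlations of 0.0050, 0.09 and -0.08), so the numbers were not taken as pairs. The replicate block left 3096 genes lower and 2495 higher, against 3179 and 2540. Not every library correlated best with its own number. Depth limits *HEY2*, with at most 4 reads per library, and *NOTCH4*, with at most 33, which averaged 10 reads only through the *DUSP6* siRNA libraries.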
